A study of Mus musculus with 12 samples.

Results

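The 10 genes described here encode some of the chondroitin sulfate proteoglycans of the brain, tenascins and link proteins of its matrix and perineuronal nets, and an enzyme that sulfates chondroitin. They were taken by symbol: the lecticans Acan, Bcan, Ncan and Vcan, the tenascins Tnc and Tnr, the link proteins Hapln1 and Hapln4, the receptor phosphatase Ptprz1 and the sulfotransferase Chst11. The rule itself uses symbols and no measured value, but the set was drawn up with earlier results of these data known. All 10 were found among the 35697 gene identifiers of the 2018 count table and among the 55637 of the 2022 table, and all 10 had enough counts to be tested in both.

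RNA-seq was performed on brain tissue of adult male C57BL/6J mice in 4 groups of 3 mice. The 2018 libraries carry WT, for wild type, in their names. A batch of 2018 held sham mice, which had the surgery without the blow, and TBI mice at 7 days after controlled cortical impact (CCI), a blow to the exposed cortex with a deformation depth of 1.5 mm. A batch of 2022 held mice at 7 days after the same injury, called TBI (2022) here, and injured mice that received zileuton, an inhibitor of the leukotriene-forming enzyme 5-lipoxygenase, dissolved in corn oil and injected intraperitoneally every day (10 mg per kg). The labels name no vehicle for the TBI (2022) mice, and for 2 of the zileuton mice the source names give 8 and 9 days although their library names give 7. The labels call the tissue brain. The study describes it as pericontusional, with the sham mice included and also taken at 7 days. Each mouse gave 1 library. Each batch held 1 comparison, and nothing was tested between batches.

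A perineuronal net is a lattice of extracellular matrix that wraps the cell body and proximal dendrites of certain neurons, above all the fast-spiking parvalbumin interneurons of the cortex. Lecticans are proteoglycans whose core proteins bind hyaluronan at one end and tenascins at the other. Link proteins lock the lecticans onto hyaluronan, and tenascin-R cross-links them. After injury of the central nervous system, chondroitin sulfate proteoglycans are known to build up in the glial scar, where their sulfated sugar chains inhibit axon growth.

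Total counts were 42929862 to 48684674 per library in 2018 and 27845562 to 35453257 in 2022. Counts were scaled within each batch to CPM (counts per 1000000), tested with edgeR's quasi-likelihood test over all genes that passed its expression filter, and adjusted by Benjamini-Hochberg, with 0.05 as the threshold. Levels of different genes were compared per length only, as FPKM in 2018 and TPM in 2022. Markers of neurons, astrocytes, oligodendrocytes and microglia were all present, and no marker of the 9 cell type lists was at 0 throughout a group. Sham replicate 1 stood apart in the choroid plexus markers, at a summed level of 840 FPKM, against 11.9 and 41.4 in the other sham libraries and 928 to 1110 in TBI. The 2022 libraries were split in the same way, with 12.2, 802 and 1710 TPM in TBI (2022) replicates A, B and C and 2660, 2230 and 18.1 TPM in zileuton replicates A, B and C.

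In sham brain, brevican, neurocan and the link protein Hapln4 were the most abundant of the 10 transcripts per length. Bcan led with 43.2 ± 2.92 FPKM (SD, n = 3), followed by Ncan with 30.2 ± 0.869 FPKM and Hapln4 with 27.9 ± 3.01 FPKM, and the ranges of Ncan and Hapln4 overlapped. Tnr with 14.9 ± 0.837 FPKM and Ptprz1 with 14.0 ± 1.29 FPKM also overlapped, and Chst11 followed with 10.5 ± 1.10 FPKM. The low end was held by Hapln1 with 3.88 ± 0.490 FPKM, Vcan with 1.74 ± 0.115 FPKM, Acan with 0.460 ± 0.0386 FPKM and Tnc with 0.424 ± 0.0320 FPKM, of which only Acan and Tnc overlapped. A gene's count adds up all of its isoforms, so the splice forms of versican, and the receptor and secreted (phosphacan) forms of Ptprz1, were not told apart.

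After TBI, 4 of the 10 genes rose and none fell. Tenascin-C, a matrix glycoprotein of development and of tissue repair, rose most, by 3.36-fold (95% interval 2.68 to 4.20). Versican rose 1.60-fold (1.37 to 1.86), the link protein Hapln1 1.51-fold (1.24 to 1.83) and brevican 1.32-fold (1.15 to 1.52). Among all 19536 genes tested, 28.0% passed the threshold, 16.8% as higher and 11.2% as lower. At an unadjusted p under 0.05 stood 5 of the 10, all higher, beside 39.6% of all genes (22.6% as higher). The median log2 fold change was 0.28 over the 10 genes and 0.02 over all genes. In 5 of the 10 genes the groups did not overlap, all higher after TBI, beside 44.4% of all genes, 24.6% as higher and 19.8% as lower.

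**Figure D1:**
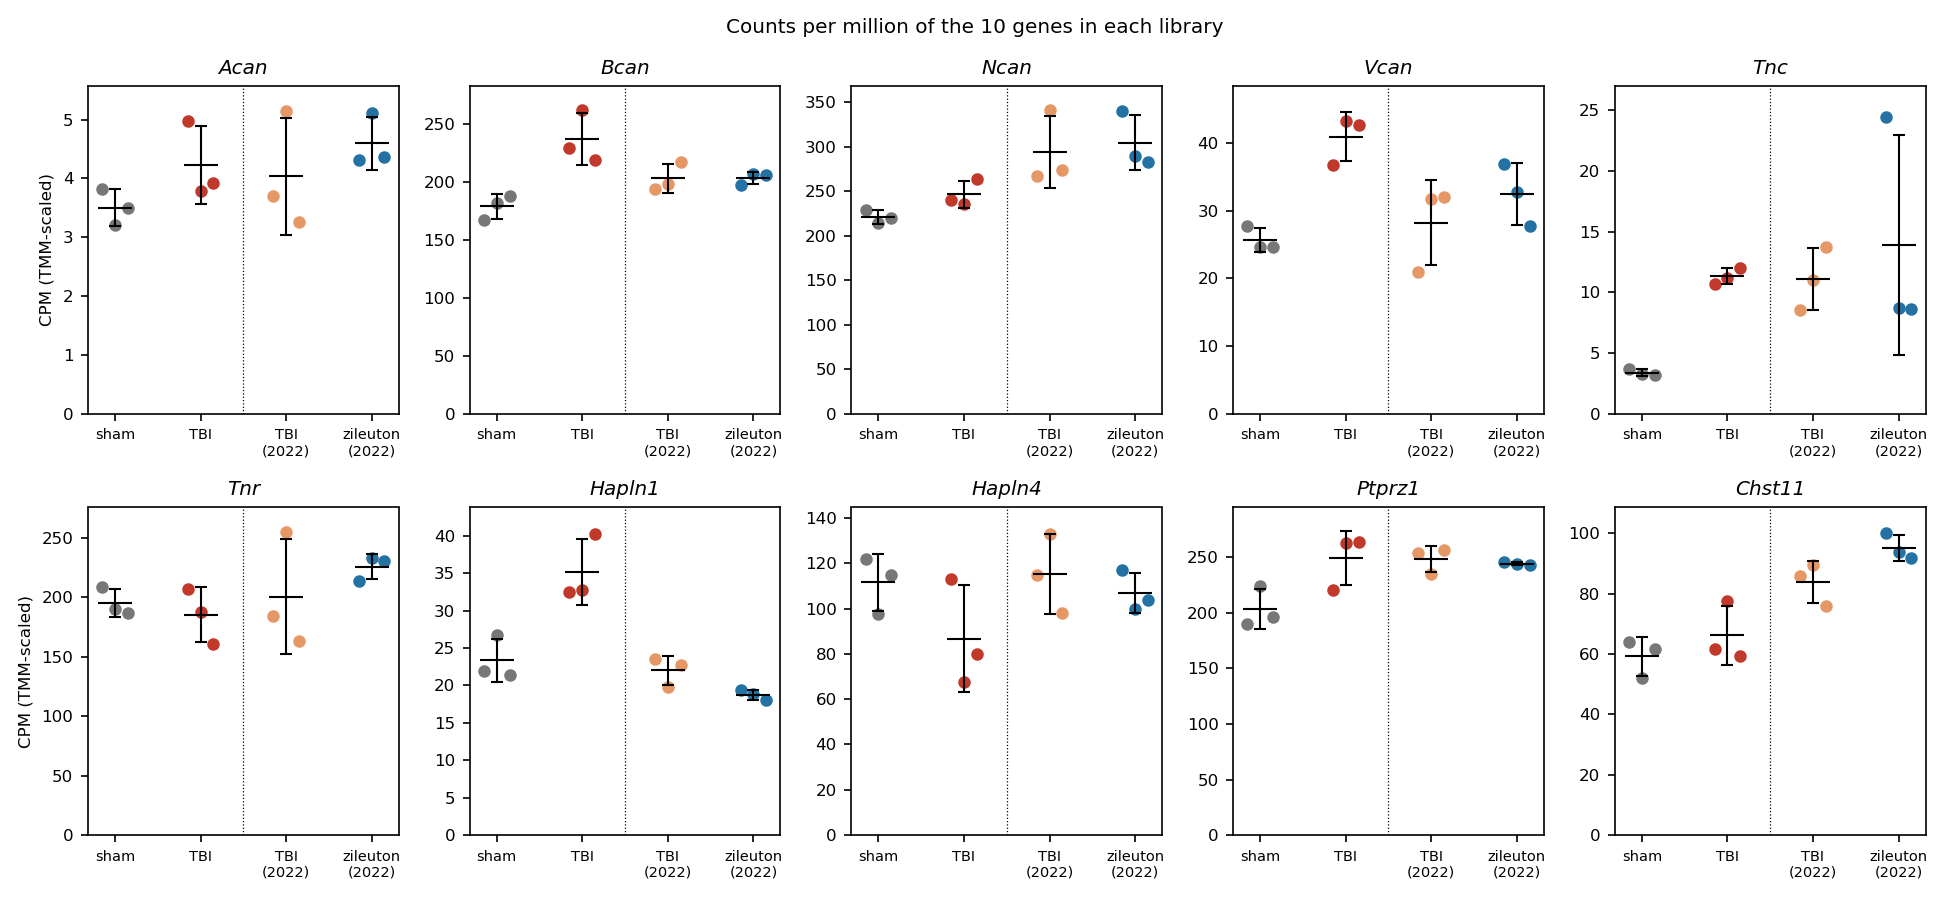
CPM (TMM-scaled, linear axes from 0) of the 10 genes in each of the 12 libraries, 3 mice per group, with horizontal lines for the mean and bars for the SD; a dotted line parts the batches of 2018 and 2022, which were scaled separately. Tnc lies at 3.14 to 3.66 CPM in the sham group and at 10.7 to 12 CPM in the TBI group, and a single zileuton library stands at 24.4 CPM.

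Among the lecticans, Vcan (ENSMUSG00000021614, chromosome 13, 89655312 to 89742509, minus strand, GRCm38) had 1251, 1136 and 1171 counts in the 3 sham libraries and 1813, 2111 and 1840 counts in the 3 TBI libraries. Every TBI library was above every sham library. Mean expression was 25.7 ± 1.83 CPM with sham surgery and 41.0 ± 3.58 CPM with TBI (SD, n = 3 each), which is 0.67 higher on the log2 scale (SE 0.0963, edgeR adjusted p = 0.00115). Versican binds hyaluronan and is expressed widely, by oligodendrocyte precursors among other cells. Bcan (ENSMUSG00000004892, chromosome 3, 87987531 to 88000230, minus strand), a lectican found almost only in the central nervous system, had sham counts of 7506, 8413 and 8956 and TBI counts of 11250, 12753 and 9430. The groups again did not overlap, with the TBI library of replicate 2 highest. The rise from 179 ± 11.2 to 236 ± 22.5 CPM amounted to 0.40 on the log2 scale (SE 0.0891, adjusted p = 0.0103). Without sham replicate 1, the library high in choroid plexus markers, the log2 fold change of Bcan was 0.34 with an adjusted p of 0.0547, past the threshold no longer. The same removal left Tnc past it at 1.80 (adjusted p = 0.000436), Vcan at 0.72 (0.0038) and Hapln1 at 0.54 (0.034), all log2 values.

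Neurocan and aggrecan did not pass. Ncan (ENSMUSG00000002341, chromosome 8, 70093085 to 70120873, minus strand), a lectican made by neurons and astrocytes, had 10311, 9908 and 10465 counts in the sham group and 11813, 11475 and 11367 in the TBI group. All TBI libraries were higher than all sham libraries, but the shift was small, from 221 ± 7.38 to 246 ± 15.2 CPM, with a log2 fold change of 0.16 (95% interval -0.01 to 0.32, adjusted p = 0.150). Acan (ENSMUSG00000030607, chromosome 7, 79053483 to 79115099, plus strand), the defining proteoglycan of the nets around parvalbumin interneurons, had sham counts of 172, 148 and 166 and TBI counts of 245, 184 and 169. The lowest TBI library lay inside the sham range. Its log2 fold change was 0.27 (95% interval -0.16 to 0.70, adjusted p = 0.332), so that neither a small fall nor a 1.63-fold rise lay outside the interval.

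Of the tenascins, Tnc (ENSMUSG00000028364, chromosome 4, 63959785 to 64047015, minus strand) had sham counts of 165, 152 and 149 and TBI counts of 527, 544 and 516. The libraries within each group were close and the groups far apart. The means were 3.36 ± 0.271 and 11.3 ± 0.642 CPM, a rise of 1.75 on the log2 scale (SE 0.142, adjusted p = 5.31e-05). Tnr (ENSMUSG00000015829, chromosome 1, 159523769 to 159931729, plus strand), the tenascin of mature brain and of nets, gave 9421, 8798 and 8876 counts under sham surgery and 10204, 9161 and 6915 under TBI. Once scaled, 2 TBI libraries lay within the sham range and the other lay below it. The log2 fold change of Tnr was -0.08 (95% interval -0.31 to 0.15, adjusted p = 0.623). Per length, Tnc stood at 2.90, 2.86 and 2.78 per 100 of Tnr in sham libraries and at 8.55, 9.83 and 12.4 per 100 in TBI libraries. The groups did not overlap, and the exact permutation test, two-sided, gave p = 0.1, the smallest that 3 mice against 3 allow.

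Of the link proteins, Hapln1 passed and Hapln4 did not. Hapln1 (ENSMUSG00000021613, chromosome 13, 89539796 to 89611652, plus strand), which stabilizes lecticans on hyaluronan, had sham counts of 985, 1233 and 1019 and TBI counts of 1601, 1593 and 1731. The TBI libraries were all higher. It rose from 23.3 ± 2.89 to 35.1 ± 4.37 CPM, or by 0.59 on the log2 scale (SE 0.122, adjusted p = 0.00742). Hapln4 (ENSMUSG00000007594, chromosome 8, 70083457 to 70090862, plus strand), a brain link protein found in nets, gave 5479, 4521 and 5483 counts under sham surgery and 5561, 3295 and 3438 under TBI. TBI replicate 1 was as high as the sham libraries and the other two were below all of them. The log2 fold change was -0.36 (95% interval -0.75 to 0.03, adjusted p = 0.156 from edgeR), and without TBI replicate 1 it was -0.60 with an adjusted p of 0.00829. Neuron markers summed to 1120, 900 and 1070 FPKM in TBI replicates 1, 2 and 3, and the part of neuron content in the values of Hapln4 was not tested. Hapln1 stood at 12, 18.1 and 12.4 per 100 of Hapln4 per length in sham mice and at 19.1, 32.1 and 33.5 after TBI, without overlap (exact permutation test, two-sided, p = 0.1, the smallest possible).

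Ptprz1 (ENSMUSG00000068748, chromosome 6, 22875502 to 23052916, plus strand), a proteoglycan receptor phosphatase of astrocytes and oligodendrocyte precursors, had sham counts of 8551, 10352 and 9316 and TBI counts of 10855, 12817 and 11393. Once scaled, TBI replicate 1 at 221 CPM fell just under sham replicate 2 at 224 CPM. Its log2 fold change of 0.30 (SE 0.0982) had an unadjusted p of 0.0152 and an adjusted p of 0.0529, just short of the threshold. It passed in 7 of 13 alternative settings. Chst11 (ENSMUSG00000034612, chromosome 10, 82985498 to 83195900, plus strand) adds sulfate to the 4-position of chondroitin. Its counts were 2886, 2407 and 2929 without injury and 3041, 3772 and 2554 with it, overlapping, with a log2 fold change of 0.16 (95% interval -0.11 to 0.43, adjusted p = 0.366).

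**Figure D2:**
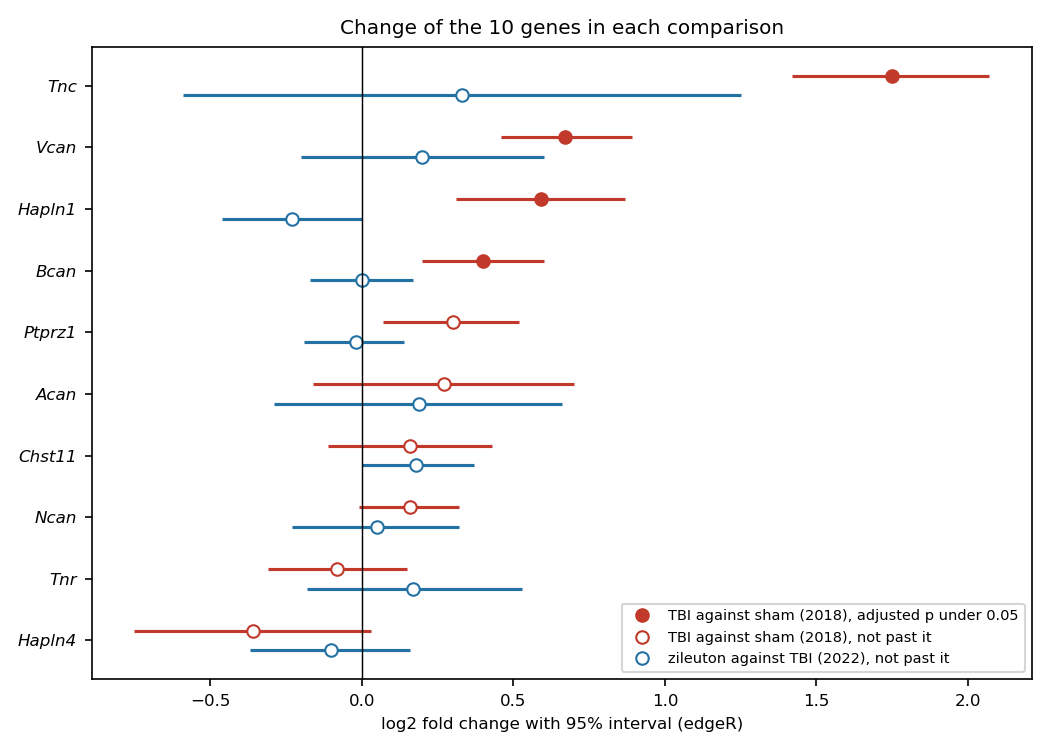
Log2 fold changes (points) with their 95% intervals (lines) from edgeR for the 10 genes, in red for TBI against sham (2018) and in blue for zileuton against TBI (2022), filled where the adjusted p was under 0.05. The 4 filled points are Tnc at 1.75, Vcan at 0.67, Hapln1 at 0.59 and Bcan at 0.40, and no blue point is filled.

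The most abundant genes per length were again Bcan and Ncan after injury. In TBI mice Bcan led with 59.3 ± 6.74 FPKM and Ncan followed with 34.8 ± 1.70 FPKM. Hapln4 with 22.5 ± 5.88 FPKM, Ptprz1 with 17.8 ± 1.90 FPKM, Tnr with 14.7 ± 1.94 FPKM and Chst11 with 12.2 ± 2.05 FPKM overlapped as neighbors. Tnc with 1.48 ± 0.0779 FPKM now stood above Acan with 0.575 ± 0.0853 FPKM, without overlap, where in sham mice the ranges of these genes had crossed.

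The lecticans added up to 73.4, 75.4 and 78.0 FPKM in sham libraries and to 93.8, 105 and 94.3 FPKM in TBI libraries, without overlap (exact permutation test, two-sided, p = 0.1, the smallest possible). Versican's share of that sum was 2.55%, 2.22% and 2.15% in sham mice and 2.74%, 2.98% and 3.14% after TBI, the only one of the 4 shares whose groups did not overlap (exact permutation p = 0.1). Brevican held 57.2% ± 2.31 in sham mice and 60.6% ± 3.35 (SD, n = 3 each) after TBI (exact permutation p = 0.3). Neurocan held 39.9% ± 2.04 and 35.8% ± 3.24 (exact permutation p = 0.3), and aggrecan 0.610% ± 0.0624 and 0.593% ± 0.112 (exact permutation p = 0.8). With CPM in place of FPKM, the neurocan share was 51.5% and 46.7% and its groups did not overlap (p = 0.1 by the exact permutation test).

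**Figure D3:**
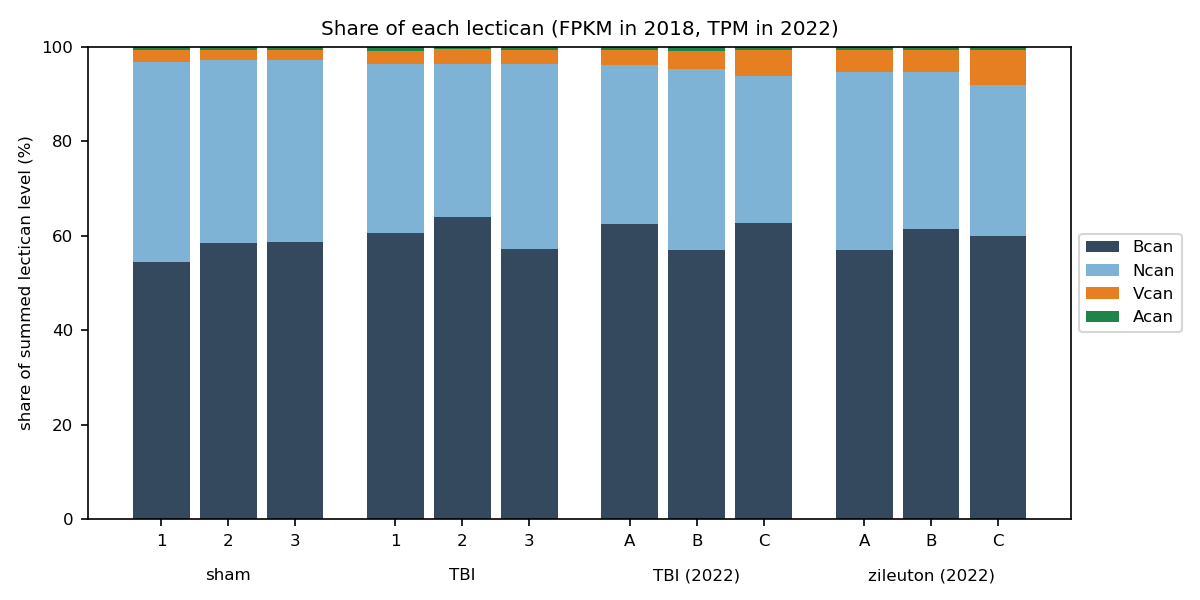
Share of Bcan, Ncan, Vcan and Acan in the summed level of the 4 lecticans (percent, 0 to 100) for each library, 3 mice per group, from FPKM in 2018 and TPM in 2022. Bcan holds 54.5% to 64.0% in the 2018 libraries, and the Vcan band is thicker in every TBI library (2.74% to 3.14%) than in every sham library (2.15% to 2.55%).

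Each lectican gene lies beside a link protein gene, with no protein-coding gene between them in GENCODE M21 on GRCm38. Vcan and Hapln1 are 43659 bases apart, and both rose after TBI (log2 fold changes 0.67 and 0.59). Bcan and Hapln2, a link protein of myelinated axons, are 21519 bases apart, and both rose (0.40 and 0.88, the latter with an adjusted p of 0.0269 from edgeR). Hapln2 kept this call in 3 of the 6 fits without 1 library, and its adjusted p was 0.104 without sham replicate 1. Ncan and Hapln4, 2222 bases apart, had log2 fold changes of 0.16 and -0.36, neither past the threshold. Acan and Hapln3 face each other with 2 bases between their ends, and neither passed, at 0.27 and 0.53 (adjusted p = 0.332 and 0.129). Whether reads were counted by strand is not given in the sources used here. Annotated genes on the opposite strand overlap Vcan, Tnc, Tnr, Hapln1 and Chst11. On the same strand Mir7066 overlaps Ncan, and Gm37731 and Gm10530 overlap Tnr. Reads of these overlapping genes could not be told apart.

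The 250 bases before the RefSeq start (GRCm38.p6) of the 4 genes that rose are printed 5′ to 3′ on the gene's own strand, to show what letters these genes share or lack at their starts. The windows are chr4:64047016-64047265 on the minus strand for Tnc, chr13:89742513-89742762 on the minus strand for Vcan, chr13:89540386-89540635 on the plus strand for Hapln1 and chr3:88000357-88000606 on the minus strand for Bcan. Capitals mark GC boxes (GGGCGG) and TATA motifs (TATAAA), searched on both strands.
Tnc: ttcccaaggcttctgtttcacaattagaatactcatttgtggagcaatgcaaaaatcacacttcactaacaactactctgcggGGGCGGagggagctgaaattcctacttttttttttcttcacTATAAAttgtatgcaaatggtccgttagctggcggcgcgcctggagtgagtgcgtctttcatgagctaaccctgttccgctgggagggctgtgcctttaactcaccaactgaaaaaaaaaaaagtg
Vcan: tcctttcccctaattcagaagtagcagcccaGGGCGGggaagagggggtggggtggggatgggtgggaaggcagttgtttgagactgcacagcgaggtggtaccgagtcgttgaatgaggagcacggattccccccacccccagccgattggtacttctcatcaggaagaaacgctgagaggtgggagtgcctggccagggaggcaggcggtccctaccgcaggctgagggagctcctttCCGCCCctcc
Hapln1: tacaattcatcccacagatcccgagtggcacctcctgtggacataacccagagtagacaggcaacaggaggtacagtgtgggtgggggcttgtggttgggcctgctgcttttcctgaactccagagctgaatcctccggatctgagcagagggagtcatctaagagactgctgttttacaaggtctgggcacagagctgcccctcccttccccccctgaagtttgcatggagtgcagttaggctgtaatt
Bcan: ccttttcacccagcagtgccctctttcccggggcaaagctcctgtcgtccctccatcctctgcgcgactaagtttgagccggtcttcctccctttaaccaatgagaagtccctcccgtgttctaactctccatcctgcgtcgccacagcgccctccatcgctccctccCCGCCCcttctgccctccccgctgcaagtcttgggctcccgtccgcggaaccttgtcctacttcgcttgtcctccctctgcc
Tnc held a GC box 167 bases and a TATAAA 126 bases before its start, in the first of its 2 RefSeq windows. Vcan held GC boxes at 219 and 10 bases, Bcan held one at 82 bases, and Hapln1 held neither motif. A GC box occurred in 32.7% and a TATAAA in 12.4% of the 32851 windows of this length. The AP-1 letters TGANTCA (6.75% of all windows) and the STAT letters TTCNNNGAA (7.02%) had no match in the windows of the 9 matched members (Hapln4 was not matched). Ptprz1 had 2 GC boxes, Acan and Chst11 had 3 each, Ncan had 1 GC box and 1 TATAAA, and Tnr had none of the 4 motifs. The GC content was 44.8% in the Tnc window, 54.4% in that of Hapln1, 62.0% in that of Bcan and 62.4% in that of Vcan, with a median of 52.4% over all windows. The RefSeq starts of Vcan, Hapln1 and Bcan are not the same bases as the GENCODE gene boundaries given above.

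Markers of several cell types moved with the injury, while 16.8% of all genes passed the threshold as higher and 11.2% as lower. Summed astrocyte markers went from 428 to 492 FPKM in sham libraries to 1130 to 1250 FPKM after TBI (6 of 8 rose), oligodendrocyte precursor markers from 79.1 to 86.9 FPKM to 135 to 172 FPKM (5 of 7 rose), and microglia and macrophage markers from 66.5 to 78.0 FPKM to 677 to 1240 FPKM (9 of 9 rose). Neuron markers went from 1310 to 1400 FPKM down to 900 to 1120 FPKM, with 5 of 8 past the threshold as lower. Oligodendrocyte markers stood at 813 to 929 and 967 to 1840 FPKM (4 of 6 rose), fibroblast and meningeal markers at 18.7 to 20.5 and 26.1 to 96.5 FPKM (4 of 7 rose), endothelial markers at 12.7 to 17.4 and 20.5 to 36.0 FPKM (5 of 6 rose), mural cell markers at 40.3 to 47.0 and 70.1 to 72.0 FPKM (3 of 6 rose), and 1 of 5 choroid plexus markers rose. In such bulk tissue, fewer cells of a type and less RNA per cell cannot be told apart. The median log2 fold change of the 8 astrocyte markers was 0.58. Of the 2 most highly expressed of them, Slc1a2 had a log2 fold change of 0.19 (adjusted p = 0.124) and Gfap rose by 3.72 on the log2 scale. The part of these changes in cell content in the rises of Tnc, Vcan, Hapln1 and Bcan was not tested.

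Genes that act on the same molecules were followed in 7 lists of 98 genes. After TBI 42 of the 97 tested passed the threshold (43.3%), 29 as higher and 13 as lower. Over all genes tested the share was 28.0%, with 16.8% as higher and 11.2% as lower. The most highly expressed gene of a list is the highest per length (FPKM) in sham mice. Each call was repeated in 6 fits that left out 1 library each. Of 17 tested genes for other chondroitin and dermatan sulfate proteoglycans, link proteins, tenascins and hyaluronan synthases, 7 rose and 1 fell, with a median log2 fold change of 0.52. Serglycin (Srgn), the granule proteoglycan of blood cells, rose from 5.29 ± 1.03 to 35.3 ± 15.1 CPM (log2 fold change 2.74, adjusted p = 0.000243). The small leucine-rich proteoglycans biglycan (Bgn, 1.72) and decorin (Dcn, 1.23), the hyaluronan synthase Has2 (1.63), the tenascin Tnn (1.61) and the link protein Hapln2 (0.88) rose as well, on the same log2 scale. Srgn, Bgn, Dcn and the gene that fell kept their calls without any 1 library. Tnn kept its call in 1 of the 6 fits (adjusted p up to 0.0967, without TBI replicate 3), Has2 in 2 (up to 0.0978, without sham replicate 3) and Hapln2 in 3, as given above. The most highly expressed of the list, Spock2 (testican-2), stood at 833 ± 31.8 and 710 ± 36.8 CPM and just missed (adjusted p = 0.0527). The gene that fell was Spock1 (testican-1), at 251 ± 26.1 and 158 ± 9.96 CPM (log2 fold change -0.67, adjusted p = 0.00104), and it was named after its values were seen. Fibroblast marker sums were higher in the TBI libraries too, and their part was not tested.

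While 16.8% of all genes rose and 11.2% fell, 5 of 12 heparan sulfate proteoglycans rose and none fell (median 0.35). They were the syndecans Sdc1 (log2 fold change 1.56), Sdc4 (0.71), Sdc3 (0.40) and Sdc2 (0.35) and the basement membrane proteoglycan perlecan (Hspg2, 0.48). Sdc4 and Hspg2 kept their calls without any 1 library and Sdc1 lost its call without sham replicate 2 (adjusted p = 0.0554). Sdc2 kept its call in 2 of the 6 fits (up to 0.0923, without sham replicate 3) and Sdc3 in 1 (up to 0.127, without sham replicate 1). Per length Sdc3 and Sdc4 led, at 29.3 and 28.2 FPKM in sham mice and 40.2 and 47.9 FPKM after TBI.

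Next came the enzymes that build the chondroitin chain and those that sulfate it. Beside 16.8% of all genes as higher and 11.2% as lower, none of 12 chain-building genes rose and 2 fell, with a median of -0.09. They were the polymerizing enzyme gene Chsy3 (19.1 ± 1.50 to 12.7 ± 1.10 CPM, log2 fold change -0.58, adjusted p = 0.00547) and the xylose kinase gene Fam20b (-0.31, adjusted p = 0.0214). Chsy3 kept its call without any 1 library and Fam20b in 3 of the 6 fits (up to 0.065, without sham replicate 1). The most highly expressed, the linker glucuronosyltransferase gene B3gat3, stood at 215 ± 9.91 and 210 ± 14.1 CPM. Of 11 tested sulfation and epimerization genes, 5 rose and none fell (median 0.25). The 6-O-sulfotransferase genes Chst3 and Chst7 rose by 1.30 and 1.07, the dermatan 4-O-sulfotransferase gene Chst14 by 1.27, the dermatan sulfate epimerase gene Dse by 0.87 and the Golgi sulfate donor transporter gene Slc35b2 by 0.60 on the log2 scale. Dse lost its call without sham replicate 3 (adjusted p = 0.0662) and without TBI replicate 3 (0.0573), and the other 4 genes kept theirs without any 1 library. Chst3 went from 3.17 ± 0.386 to 7.79 ± 1.87 CPM (adjusted p = 0.0026). The most highly expressed of them, the sulfate donor synthase gene Papss1, stood at 73.4 ± 1.93 and 78.1 ± 2.74 CPM (adjusted p = 0.368). Chst11, which sulfates the 4-position of chondroitin itself, did not pass, as given above. The difference between Chst11 and the 6-O-sulfotransferase genes was not tested.

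Of 19 breakdown genes, the longest of the 7 lists, 9 rose and 1 fell (median 0.44), where 16.8% of all genes rose and 11.2% fell. Lysosomal enzymes among them included beta-glucuronidase (Gusb), which rose from 14.5 ± 0.478 to 63.9 ± 14.1 CPM (log2 fold change 2.14, adjusted p = 2.37e-05), the lysosomal hydrolase gene Hexa, which rose by 1.87, and the 6-sulfatase gene Galns, which rose by 0.89. The proteases Adamts9 and Adamts1, which cut lecticans, rose by 1.28 and 1.03. Of the 10 calls in this list, 8 held without any 1 library, those of the genes named here included. The iduronate sulfatase gene Ids, the most highly expressed of the list, fell from 530 ± 45.0 to 389 ± 13.6 CPM (log2 fold change -0.45, adjusted p = 0.00479). Hexa and Gusb are lysosomal genes found in many cell types, microglia and macrophages included, whose markers rose in the same libraries. Their part was not tested.

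Of 16 receptors and ligands, 3 rose and 5 fell (median -0.14), where 16.8% of all genes rose and 11.2% fell. The hyaluronan receptor Cd44 rose from 3.30 ± 1.21 to 30.5 ± 9.62 CPM (log2 fold change 3.21, adjusted p = 0.000129), the growth factor midkine (Mdk) by 1.15 and the integrin subunit Itgb1 by 0.82. Lower were the Nogo receptor homolog Rtn4rl2 (-0.52), the receptor phosphatase Ptprd (-0.42) and the adhesion molecule Nrcam (-0.41). Rtn4rl2 kept its call in 1 of the 6 fits (adjusted p up to 0.083, without sham replicate 2), and the other 5 genes named kept theirs in all. The Ptprz1 ligand pleiotrophin (Ptn) was the most highly expressed, at 495 ± 27.5 and 579 ± 98.4 CPM (adjusted p = 0.193). Of the 10 genes listed for net-bearing interneurons, 4 fell and none rose (median -0.33), while neuron markers as a whole were lower too. They were the neuregulin receptor Erbb4 (-0.63), the fast-spiking potassium channels Kcnc2 (-0.49) and Kcnc1 (-0.35) and the transcription factor Lhx6 (-0.40). The count was 2 when scaled by library totals alone and 6 with DESeq2 or without a filter. Erbb4 and Kcnc2 kept their calls without any 1 library, Kcnc1 in 2 of the 6 fits (adjusted p up to 0.108, without sham replicate 3) and Lhx6 in 1 (up to 0.0967, without TBI replicate 2). The most highly expressed, the synaptic protein gene Cplx1, stood at 762 ± 77.3 and 599 ± 98.3 CPM (adjusted p = 0.0701). Parvalbumin itself (Pvalb, named after its values were seen) stood at 82.5 ± 12.8 and 72.9 ± 19.2 CPM (log2 fold change -0.18, adjusted p = 0.511). Bulk tissue does not show in which neurons the 4 genes fell, and whether these were net-bearing cells was not tested.

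**Figure D4:**
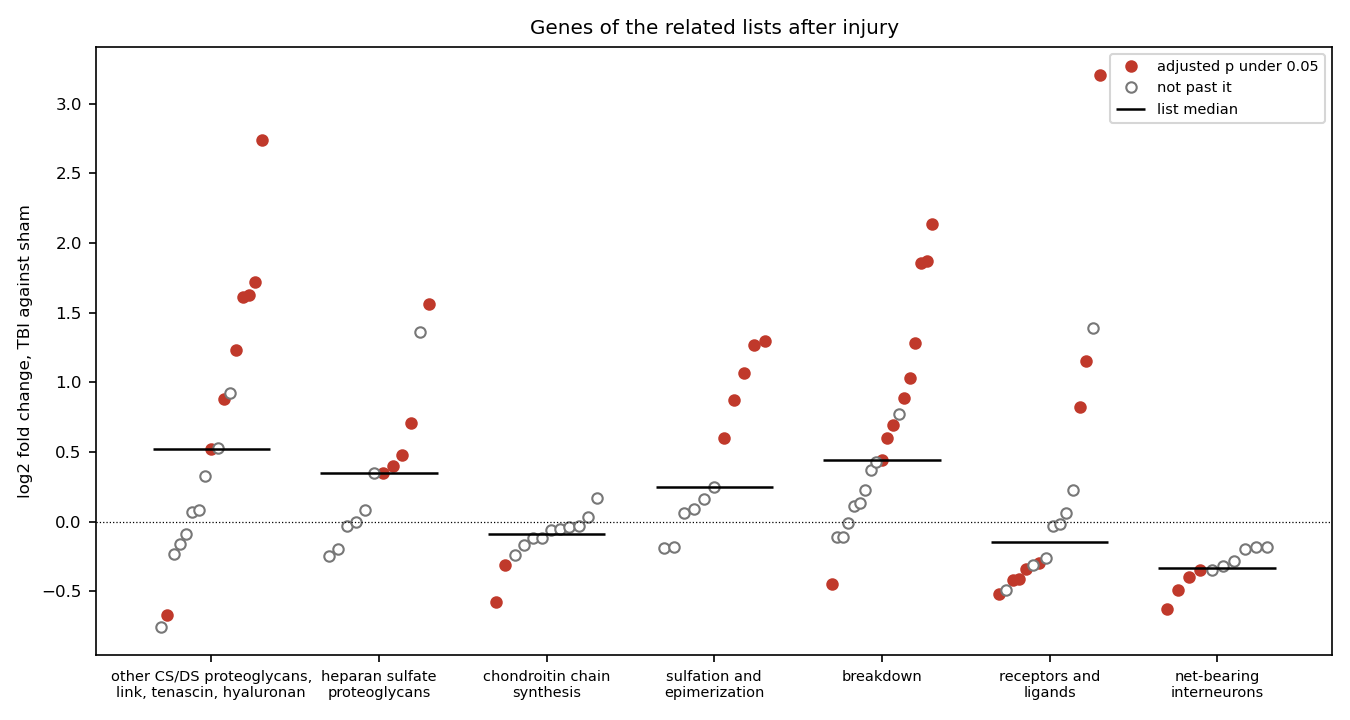
Log2 fold change (TBI against sham, edgeR) of each tested gene of the 7 lists, sorted within a list, filled where the adjusted p was under 0.05, with a line for the list median. The medians run from -0.33 in the interneuron list to 0.52 in the list of other proteoglycans, and Cd44 lies highest at 3.21.

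The comparison of zileuton with TBI (2022) asked whether the inhibitor changed these genes in injured brain. None of the 10 passed the adjusted threshold in edgeR, and neither did any of the 17363 genes tested (0%), while 6.83% had an unadjusted p under 0.05 (2.93% as higher and 3.90% as lower). DESeq2 called 28 genes and limma 4 or 3, depending on the pseudocount, and none of the 10 was among them. Limma without a filter called 0 genes. The median log2 fold change was 0.11 over the 10 and 0.00 over all genes. In 2 of the 10, Hapln1 and Chst11, the groups did not overlap, beside 13.6% of all genes (6.51% as higher and 7.04% as lower). The SD of the groups here limits what could be seen: the 95% intervals of Tnc, Acan and Vcan reached from -0.59 to 1.25, from -0.29 to 0.66 and from -0.20 to 0.60.

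Hapln1 had 685, 692 and 637 counts in TBI (2022) libraries and 589, 598 and 520 in zileuton libraries. The zileuton libraries were all lower, at 18.8 ± 0.624 CPM against 22.0 ± 1.95 CPM, a log2 fold change of -0.23 (unadjusted p = 0.0496, adjusted p = 0.713 from edgeR). The deposited TPM of the same gene were 19.9, 18.4 and 20.6 against 18.9, 19.0 and 21.6, with overlap, so the difference is in the counts and not in the values per length. Chst11 had 2505, 3129 and 2131 counts in TBI (2022) libraries and 3044, 2983 and 2637 in zileuton libraries. In CPM each zileuton library was above each TBI (2022) library, at 95.3 ± 4.31 against 83.8 ± 6.98 CPM, with a log2 fold change of 0.18 (unadjusted p = 0.0524, adjusted p = 0.713).

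Tnc had 250, 385 and 383 counts in TBI (2022) libraries and 742, 276 and 247 in zileuton libraries. Zileuton replicate A stood alone at 24.4 CPM, against 8.67 and 8.61 CPM in the other zileuton libraries and 8.57 to 13.7 CPM in TBI (2022). Its log2 fold change of 0.33 (SE 0.400) had an adjusted p of 0.857, and without that library it was -0.36 (adjusted p = 0.536). Astrocyte markers summed to 4200 TPM in zileuton replicate A and to 2820 to 3390 TPM in the other 5 libraries of 2022. The same library was also highest in oligodendrocyte precursor (260 TPM), oligodendrocyte (8580 TPM), endothelial (133 TPM) and choroid plexus markers (2660 TPM). It was not highest in neuron, microglia and macrophage, fibroblast or mural cell markers. The part of cell content in the Tnc value was not tested.

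The remaining 7 genes had groups that overlapped in CPM. Vcan had 614, 1109 and 898 counts in TBI (2022) and 1121, 1042 and 796 in zileuton libraries (log2 fold change 0.20, adjusted p = 0.801). Bcan was at 203 ± 12.3 and 203 ± 5.42 CPM, with an interval of the log2 fold change from -0.17 to 0.17, and Ptprz1 was at 249 ± 12.1 and 244 ± 1.42 CPM, from -0.19 to 0.14. In both, a change the size of Bcan's after injury lies outside the interval. The deposited TPM of Bcan, 123, 125 and 128 against 131, 134 and 130, did not overlap, with a log2 fold change of 0.07 in the equal-variance test on TPM (unadjusted p = 0.0254, adjusted p = 0.756 over all genes). Ncan stood at 294 ± 41.1 and 304 ± 31.1 CPM (log2 fold change 0.05), Tnr at 200 ± 48.5 and 226 ± 10.5 CPM (0.17), Acan at 4.03 ± 0.993 and 4.60 ± 0.456 CPM (0.19) and Hapln4 at 115 ± 17.4 and 107 ± 8.98 CPM (-0.10). The adjusted p-values from edgeR were 0.801 to 0.999 over the 7 genes.

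Counts and TPM of the 2022 batch did not always give the same direction, and the length behind a gene's TPM differed between libraries. That length, taken from the ratio of estimated count to TPM relative to the gene's mean, was 1.14, 1.31 and 0.890 for Vcan in TBI (2022) replicates A, B and C and 1.18, 1.09 and 0.585 in zileuton replicates A, B and C. The highest was 2.23 times the lowest, a ratio above that of 99.4% of 13531 genes, whose median was 1.08. For Acan the 3 zileuton libraries had longer values (1.08 to 1.18) than the 3 TBI (2022) libraries (0.829 to 0.914), and its log2 fold change was 0.19 in counts and -0.10 in limma on log2(TPM + 0.1). For Hapln1 the lengths ran from 0.821 to 1.16. The other 7 genes had ratios of at most 1.05. Versican's share of the lecticans was 4.15% ± 1.26 in TBI (2022) and 5.61% ± 1.53 in zileuton libraries (SD, n = 3 each, exact permutation p = 0.3), and zileuton replicate C, with the short Vcan length, had the highest share, 7.37%.

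**Figure D5:**
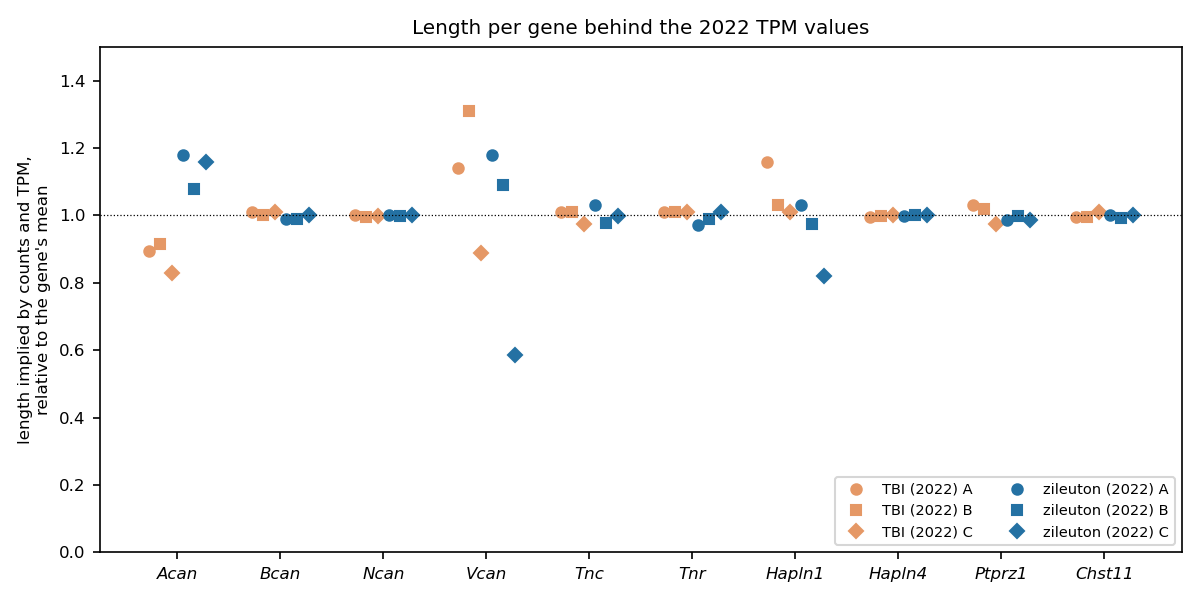
Length per gene implied by the estimated counts and TPM of 2022, relative to the gene's mean over the 6 libraries, with a mark shape for each library and a dotted line at 1. Vcan spreads from 0.585 to 1.31, Acan and Hapln1 spread less, and the other genes stay near 1.

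Per length the order in 2022 was again led by Bcan (125 ± 2.43 TPM in TBI (2022) and 132 ± 2.21 TPM with zileuton) and Ncan (71.5 ± 11.2 and 76.6 ± 9.13 TPM), with Tnc (3.27 ± 0.685 and 4.26 ± 2.76 TPM) and Acan (1.49 ± 0.332 and 1.37 ± 0.196 TPM) lowest. Ptprz1 came next, at 64.2 ± 3.22 TPM in TBI (2022), its range overlapping those of Ncan and of Hapln4 at 55.9 ± 10.0 TPM. The lecticans summed to 207 ± 11.0 and 222 ± 6.72 TPM (exact permutation p = 0.2). Tnc per 100 of Tnr was 12.2 ± 5.08 and 12.6 ± 8.39 and Hapln1 per 100 of Hapln4 was 36.2 ± 8.73 and 37.1 ± 5.21 (both exact permutation p = 1.0).

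No gene of the 7 lists passed the adjusted threshold under zileuton in edgeR. At an unadjusted p under 0.05 were 7 of the 96 tested list genes (7.29%), close to the 6.83% of all genes, and they were named after their values were seen. In the breakdown and other proteoglycan lists, the hyaluronidase Cemip2 (15.4 ± 0.799 to 20.5 ± 1.08 CPM, log2 fold change 0.42) and the aggrecanase Adamts4 (0.58) were higher, and Srgn (-0.63) was lower, each with an adjusted p of 0.713. Among receptors and ligands, Itga9 (0.33) and Ptprf (0.18) were higher and Rtn4rl2 (-0.29) and Ptn (-0.26) lower at the same unadjusted level, all with an adjusted p of 0.713. The other 4 lists had none. The medians of the 7 lists lay between -0.05 and 0.11, beside 0.00 over all genes.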

How the data were processed

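The authors deposited whole, unnormalized read counts and the FPKM derived from them with 1 fixed length per gene in 2018. In 2022 the authors deposited estimated counts (13.7% of the values are not whole) and TPM. The submitters' processing notes name HISAT2, featureCounts, Subread, DESeq2 and GRCm39, without versions or roles. Counting by strand and the annotation are not given in the sources used here. In 2018, 62.3% to 64.4% of counts between 1 and 20 were even numbers, and counts were not read as molecules. No column is pooled. The 2022 columns name the group and not the library, and their replicates are called A, B and C.

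Symbols matched 34808 of 35697 identifiers in 2018 and 52081 of 55637 in 2022. Positions came from GENCODE M21 on GRCm38, a build that differs from the one in the processing notes, and windows before gene starts from RefSeq (GRCm38.p6), which held 9 of the 10 genes. Each batch was fitted alone with edgeR 4.0.16 under R 4.3.3 (TMM, filterByExpr, glmQLFit and glmQLFTest, group as the only term), with estimated counts rounded to whole numbers and p-values adjusted by Benjamini-Hochberg over all genes tested. The standard error is the size of the log2 fold change divided by the square root of the F statistic, and intervals are at 95%. Shares and ratios of levels were compared by two-sided exact permutation tests, which cannot go below 0.1 with 3 against 3. Nothing says more of the replicates than that each library is 1 mouse, so p-values measure the spread between these libraries. Replicate libraries differed beyond sampling noise, with a chi-square per gene of 9.72 to 40.3. The scripts were tested on simulated data.

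The members and lists were chosen with earlier results of these data known. The genes named were the 10 members, up to 6 genes past the threshold per pathway list by size of change together with its most highly expressed gene, and the 2 most highly expressed markers of a cell type, given as examples. A gene that this rule would name is not reported here. Alternatives were DESeq2 1.42.0 as a test and for its size factors, scaling by library totals only, filters of 1 count in all and of 10 counts in each library, robust dispersion, limma 3.58.1 on log2(value + 1) and log2(value + 0.1) for genes with a mean of at least 0.5 and on log2(value + 1) without a filter, an equal-variance test on FPKM or TPM, removal of the trend with gene length, a replicate block, counts divided by 2 in 2018, CPM in place of length-scaled levels for the shares, and leaving out each mouse. Plots were made in matplotlib 3.10.9 (Python 3.11.15).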

Additional observations from a re-analysis of the deposited data

How the results depend on the processing

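After injury, Tnc and Vcan passed the threshold in all 13 alternatives and without any 1 library. Hapln1 lost it in the equal-variance test on FPKM alone (adjusted p = 0.0571), and Bcan there (0.0784) and without sham replicate 1 (0.0547). That test called 2 of the 10 members and 2625 genes, against 4 and 5479 with edgeR. Leaving out 1 library gave 3 to 6 members and 3848 to 4956 genes, and 4 to 6 members at an unadjusted p under 0.05. Ncan passed in 3 of 13 alternatives and Ptprz1 in 7 of 13 and without TBI replicate 1. Higher against lower calls were 3286 and 2193, and 3680 and 1715 with library totals alone. Tnr turned to 0.03 with the length trend removed and ranged from -0.17 to 0.02 without 1 library. The share of Acan ranged from -0.0792 to 0.0287 points without 1 library.

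The replicate numbers were not treated as pairs in the main fit. Same-numbered deviations correlated at -0.0228, -0.0944 and -0.0326 in 2018 and -0.28, 0.0628 and -0.282 by the column numbers of 2022. Between libraries of different numbers the correlations ran from -0.104 to 0.13 in 2018 and from -0.073 to 0.313 in 2022. With 3 libraries per group these values cannot exclude a pairing. With a replicate block 4337 genes passed in 2018 and 5 members, Hapln4 as lower (adjusted p = 0.0461), and in 2022 729 genes had an unadjusted p under 0.05, against 1186, and 0 members.

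Under zileuton no member passed the adjusted threshold in any alternative. The 1 member at an unadjusted p under 0.05, Hapln1, became 0 with DESeq2 and its size factors, library totals alone, limma on TPM, a minimum of 1 count in all and a minimum of 10 counts in each library, and 0 to 3 without 1 library (3 without TBI (2022) replicate B). The equal-variance test on TPM also had 1, but it was Bcan as higher (0.07) and not Hapln1. Genes past the adjusted threshold, 0 with edgeR, were 28 with DESeq2 (6 higher, 22 lower) and 4 with edgeR without a filter. They were 4 and 3 with limma on log2(TPM + 1) and log2(TPM + 0.1), and 0 with limma on log2(TPM + 1) without a filter. Genes at an unadjusted p under 0.05 ranged from 689 (without zileuton replicate B) to 1909 (without zileuton replicate A), and were 822 higher and 324 lower in the equal-variance test on TPM, against 509 and 677. On TPM, Acan was -0.06 and -0.10 in limma and -0.12 in the equal-variance test, Hapln1 0.01, 0.01 and 0.02, and Ptprz1 0.06 throughout. Bcan was -0.01 with library totals alone and -0.0047 with no filter. Without 1 library Bcan ranged from -0.03 to 0.05, Ncan from -0.04 to 0.17, Hapln4 from -0.21 to 0.0084 and Tnc from -0.36 (without zileuton replicate A) to 0.58. Shares on CPM gave Acan 0.0896 and Ncan 0.355 points, and Ncan ranged from -1.77 to 1.97 without 1 library. The cause of these shifts was not tested. Across genes, the log2 fold change and gene length had a Spearman correlation of 0.31 in 2022 and -0.115 in 2018. With the length trend removed in 2022, Vcan went from 0.20 to 0.09, Tnr from 0.17 to 0.08 and Ptprz1 from -0.02 to -0.14. The other members moved less, and none of the 10 passed the adjusted threshold. With 3 mice per group, changes inside the intervals given cannot be told from 0.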
